A study of Mus musculus with 8 samples.

Results

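Cohesin is the ring of proteins that holds sister chromatids together, and 9 genes around it were followed here on 8 two-colour arrays of mouse intestinal RNA. They are Smc1a and Smc3, which form the core of the ring, Rad21, which closes it in dividing body cells, Stag1 and Stag2, which bind Rad21, Nipbl, which loads the ring onto DNA, and the meiotic subunits Rec8, Smc1b and Stag3. They were found by the gene name printed beside each probe in the scanner files, where Rec8 appears under its older name Rec8L1. All 9 genes had a probe, 20 probes in all, among 27573 gene names on the array. The set was chosen by the Rec8 ratios on these arrays, which had stood out in both comparisons, and completed with the known genes of the complex. The Rec8 values are therefore a description with no test.

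There were 2 comparisons, each on 4 arrays. One set GFPhi cells against GFPlo cells, sorted by green fluorescence from the intestine of Lgr5-EGFP-ires-CreERT2 mice, in which the Lgr5 promoter drives the fluorescent protein together with an inducible Cre. Each of the 2 sorts pooled 3 mice. The other set RNA from intestinal epithelium of Ah-Cre/Ascl2floxed/floxed animals, called deleted here, against that of Ah-Cre/Ascl2floxed/wt controls, at 3 and at 5 days after induction of Cre. Controls also carried the Cre and 1 floxed copy, although the array titles call them wildtype. ASCL2 is a transcription factor of the helix-loop-helix kind, and the Ah promoter is that of a xenobiotic-inducible cytochrome gene. How many animals stand behind a deletion pair is not stated in the sources used here. Every RNA pair was measured on 2 arrays in opposite dyes, which count as 1 replicate, so n = 2 RNA pairs in each comparison. Values are log2 ratios of GFPhi over GFPlo or of deleted over control, unless they are called a signal, which is the log2 level of 1 channel.

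In body cells the kleisin RAD21 closes the ring formed by SMC1A and SMC3, and a STAG protein sits on the kleisin. In germ cells entering meiosis REC8 takes the place of RAD21, SMC1B that of SMC1A and STAG3 that of STAG1 or STAG2. REC8 is known for keeping sister centromeres linked through the first meiotic division. The intestinal crypt is a mitotic tissue with no meiosis.

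Between 35.5% and 44.6% of spots per channel were well above background on the sort arrays, and between 55.0% and 66.9% on the deletion arrays. Ascl2 itself was lower in deleted epithelium, at -1.33 on day 3 and -1.48 on day 5, although whether its probe lies in the deleted part is not given. Lgr5, the gene that drives the reporter, was higher in GFPhi cells, at 2.10 in sort 1 and 2.49 in sort 2. All 13 crypt base stem cell markers tested in the sorts had a mean above 0, against 52.0% of all genes tested. In the deletion all 14 tested had a mean below 0, against 49.5%, although 2 were above 0 on day 3 and 1 on day 5. These markers include Lgr5 and Ascl2 themselves. The limma fit over all 4 RNA pairs called 0% of the 10555 genes tested in the sorts and 0% of the 15841 tested in the deletion at an adjusted p of 0.05. At an unadjusted p of 0.05 it passed 1058 and 1528 genes. The 2 sorts fitted alone called 1582 genes or 15.0%, and the 2 deletion days fitted alone called 0, with 460 at an unadjusted p of 0.05. Each RNA pair had a slide of its own, so slide and pair cannot be told apart, and the p values measure only the spread between these pools or extracts.

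Rec8 RNA was higher in GFPhi than in GFPlo cells and higher in deleted than in control epithelium, on every array. Its brightest probe, A_51_P246677, is on the plus strand of chromosome 14, from 54579394 to 54579453 in mouse build mm8. This probe was well above background in all 16 channels. In GFPhi cells its log2 signal averaged 12.25 in sort 1 and 12.54 in sort 2, against 11.17 and 11.30 in GFPlo cells. The lowest GFPhi channel was at 12.23 and the highest GFPlo channel at 11.44. How many other genes had their channels apart in this way was not counted. Of all genes tested in the sorts, 17.4% were above 0 on all 4 arrays. The ratios were 1.15 and 1.002 on the arrays of sort 1 and 1.40 and 1.08 on those of sort 2. Their mean was 1.16 ± 0.12 (SD, n = 2 sorts), or 2.23-fold.

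In the epithelium the same Rec8 probe gave a log2 signal of 12.28 in deleted and 11.54 in control RNA on day 3. On day 5 the deleted RNA was at 11.52 and the control RNA at 9.66. Deleted RNA was above control RNA within each day, but the day 5 deleted channels, at 11.45 and 11.58, overlapped the day 3 control channels, at 11.47 and 11.62. The day 3 arrays had ratios of 0.90 and 0.56, and the day 5 arrays 1.98 and 1.74. Their mean of 1.29 ± 0.80 (SD, n = 2 days), or 2.45-fold, covers a day 3 mean of 0.73 and a day 5 mean of 1.86. The difference between the days was not tested, since each day has 1 RNA pair.

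**Figure D1:**
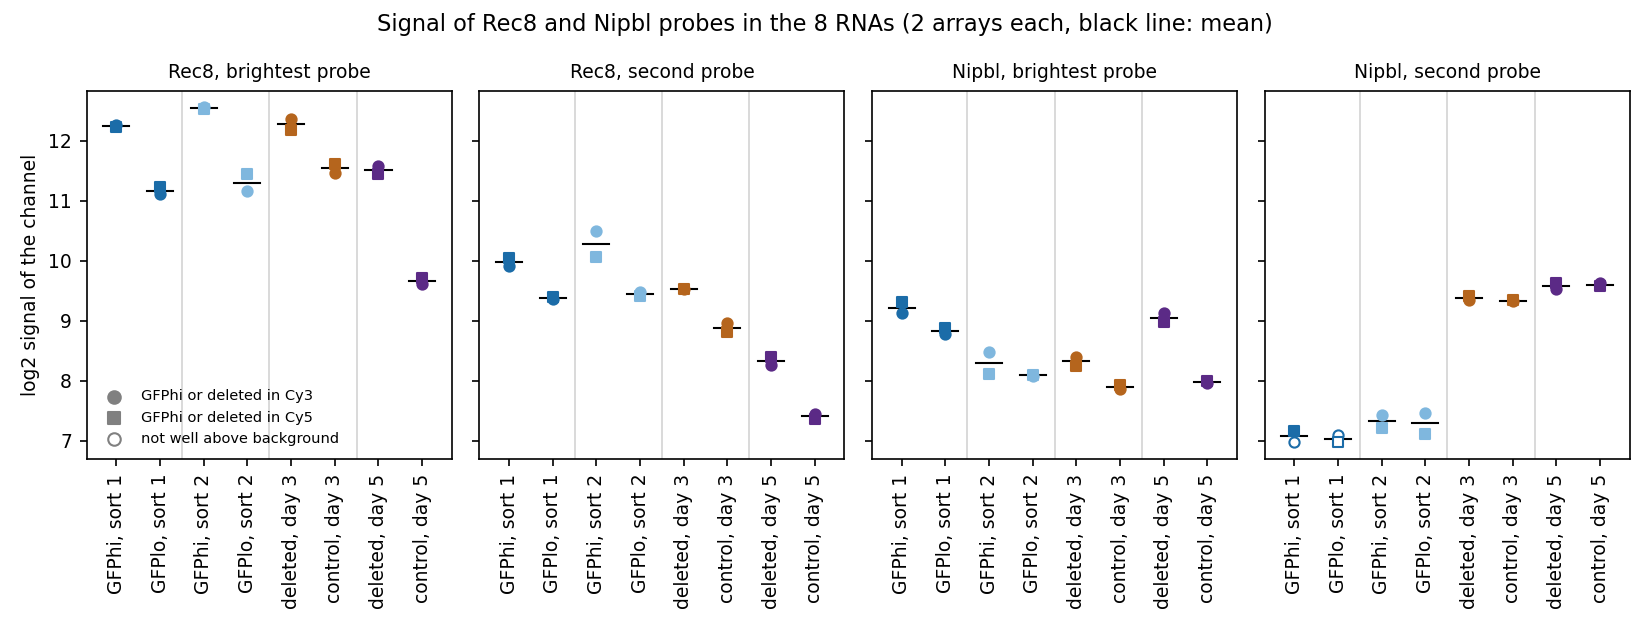
Log2 signal of each channel for 2 Rec8 probes and 2 Nipbl probes in the 8 RNAs, with 2 dye-swapped arrays for each RNA and a black line at their mean. Rec8 sits higher in GFPhi than GFPlo and in deleted than control RNA for both probes, with the day 5 control lowest, while the 2 Nipbl probes differ from each other.

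Set side by side over the 8 RNAs, the Rec8 signal was highest in GFPhi cells of sort 2, followed by deleted epithelium on day 3 and GFPhi cells of sort 1, whose arrays overlap each other. Next came control epithelium on day 3 and deleted epithelium on day 5, which also overlap, then GFPlo cells of sorts 2 and 1, which overlap as well. Control epithelium on day 5 was lowest. These levels come from separate slides, whose mean signals were put on a common scale by quantiles. With that limit, the signal of the brightest Rec8 probe on day 5 minus that on day 3 was -0.76 in deleted and -1.89 in control RNA. Of the 15841 genes tested, 1347 had a lower value in deleted RNA and 39 in control RNA. The median over all these genes was 0.05 for deleted and 0.02 for control RNA. Both channels of this probe were thus lower on day 5, and its higher day 5 ratio goes with the larger fall in the control channel. Day, slide and animals cannot be told apart here.

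A second Rec8 probe, A_52_P459732, spans 385 bases of chromosome 14 from 54578438 to 54578822 in mm8, upstream of the first on the plus strand. It was also well above background in all 16 channels and gave a ratio of the same sign on every array, with a smaller mean in each RNA pair. In sort 1 they were 0.55 and 0.65, and in sort 2 they were 1.02 and 0.65. The day 3 arrays gave 0.58 and 0.71 and the day 5 arrays 0.81 and 1.03. The mean was 0.72 in the sorts and 0.78 in the deletion. On this probe day 5, at 0.92, exceeded day 3, at 0.64, by less than on the brighter one. Its mean log2 signal also fell between the days in both RNAs, from 9.53 to 8.33 in deleted and from 8.88 to 7.41 in control RNA.

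Among the 10416 genes tested in both comparisons, Rec8 was the only gene at least 2-fold higher by its mean in each, which is 0.00960% of them. That count was made after the values were seen. Rec8 itself was below 2-fold in the sorts when its probes were averaged, at 0.94, and in the deletion when day 5 was left out, at 0.73. In the sorts 10 genes had a higher mean ratio than Rec8, and in the deletion 76 had. Taken by day, 787 genes were above Rec8 on day 3 and 93 on day 5. In all, 180 of the genes tested in both, or 1.73%, were above 0 on all 8 arrays, and Rec8 and the brightest probe of Nipbl were among them.

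**Figure D2:**
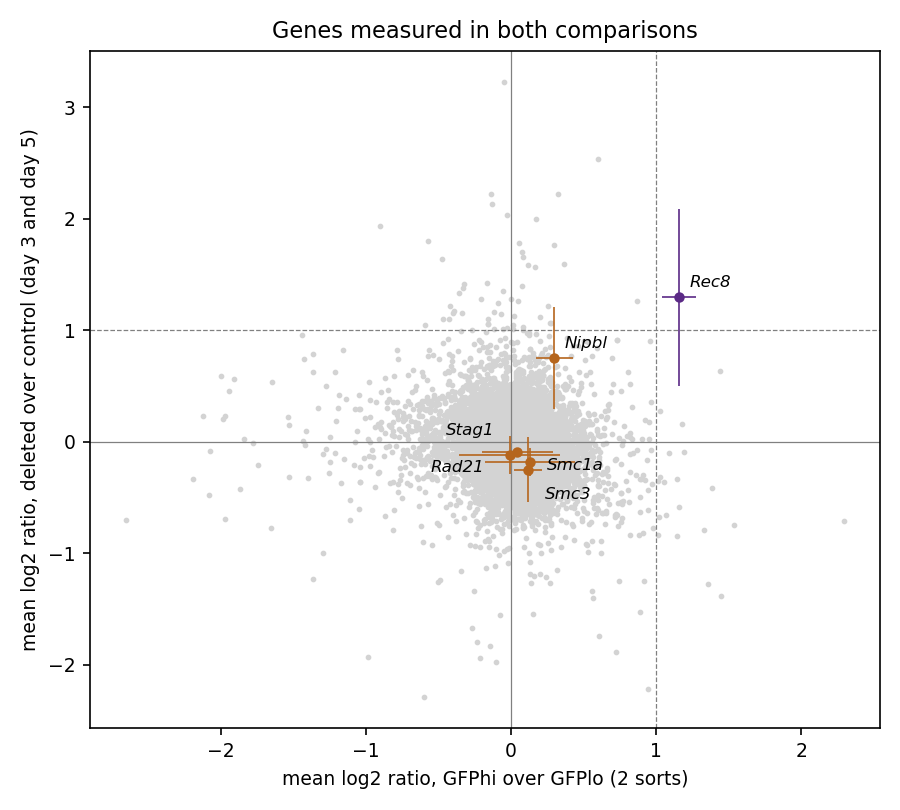
Mean log2 ratio of GFPhi over GFPlo (horizontal axis) against deleted over control (vertical axis) for the 10416 genes tested in both comparisons, in grey, with 6 cohesin members marked and bars of 1 SD over 2 RNA pairs. Dashed lines mark a 2-fold higher level in GFPhi or deleted RNA. Rec8 at 1.16 and 1.29 lies alone beyond both, and Smc1a, Smc3, Rad21 and Stag1 lie near the centre of the cloud.

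RNA of other cell types also differed between the samples. In the day 5 epithelium the 8 fibroblast and muscle markers tested had a median ratio of 3.09, ranging from -0.07 to 5.21, against -0.13 on day 3. Their summed signal over 9 genes, on a linear scale, ranged from 18056 to 18362 in deleted and from 4058 to 4552 in control RNA on day 5. On day 3 it ranged from 6942 to 8052 in deleted and from 7347 to 7737 in control RNA. For T cell markers the day 3 median was 0.90, with 8 of 10 above 0 (7963 of 15841 over all genes tested), and the day 5 median was -0.04, and the 5 B and plasma cell markers tested had medians of 0.78 and 0.17. Their part in the Rec8 ratios of the epithelium was not tested, and in such bulk RNA fewer cells of a type and less RNA per cell cannot be told apart. The summed signal of the 10 T cell markers ranged from 22596 to 23743 in deleted and from 8550 to 9254 in control RNA on day 3, and on day 5 from 28996 to 29057 in deleted and from 26422 to 29207 in control RNA. In the sorted cells the fibroblast and muscle sum ranged from 11112 to 11932 in GFPhi and from 11967 to 12180 in GFPlo cells of sort 1, and from 7116 to 7266 in GFPhi and from 6123 to 6601 in GFPlo cells of sort 2. Of its 9 markers Col1a1, Col3a1, Dcn, Lum and Pdgfra were not well above background on either array in any sorted RNA, nor was Myh11 in GFPlo cells of sort 2, and the others were above it on at least 1 array. Of the T cell markers, 2 and 4 were not above background in GFPhi cells of sorts 1 and 2, and 5 and 3 in GFPlo cells, with Cd4 and Cd8a among them each time. Their sum ranged from 2369 to 2898 in GFPhi and from 2349 to 2548 in GFPlo cells. Their part in the Rec8 ratios of the sorts was not tested either.

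By their mean, goblet markers had a median of -1.65 and enteroendocrine markers one of -1.87 in GFPhi over GFPlo, so the GFPlo cells held more RNA of these secretory lineages. The Paneth, tuft and enterocyte medians were -0.24, -0.52 and -0.54. The deleted epithelium had a goblet median of 0.94 on day 3 and 0.04 on day 5, and crypt base stem cell medians of -0.81 and -0.40. All 8 Paneth markers tested were below 0 on both day 3 arrays, against 39.5% of all genes tested. Their median was -1.32 on day 3 and 0.11 on day 5. Their summed signal on day 3 differed between the arrays, from 133565 to 415176 in deleted and from 561794 to 785235 in control RNA. Enterocyte medians were 0.58 and -0.48 and tuft medians 0.70 and -0.47 on the 2 days. Rec8 was thus higher where stem cell markers were higher in the sorts, and higher where they were lower in the deletion. Whether the cell makeup bears on Rec8 was not tested.

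The 4 subunits of the mitotic ring other than Stag2 were tested in both comparisons, and none passed the test in either. Smc1a, a core ATPase of the ring, lies on the X chromosome, and its brightest probe, A_51_P123047, was well above background in all 16 channels. Its ratios were 0.34 and 0.36 in sort 1 and 0.00 and -0.18 in sort 2, so the sorts disagreed in sign of the mean. All 4 deletion arrays were below 0, with -0.24 and -0.30 for day 3 and -0.06 and -0.13 for day 5. The deletion mean of -0.18 had a 95% interval from -0.58 to 0.21 and a limma adjusted p of 0.639, and the sorts had an adjusted p of 0.885. The second Smc1a probe, A_52_P12481, had means of -0.37 on day 3 and -0.01 on day 5. It was at 0.02 on the day 5 array with deleted RNA in Cy3.

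Smc3, the partner ATPase, was also below 0 on every deletion array at its brightest probe, A_51_P380875. Its second probe, A_52_P138002, had means of -0.31 on day 3 and -0.02 on day 5. That probe was at 0.09 on the day 5 array with deleted RNA in Cy3. The brightest probe gave 0.20 and 0.17 in sort 1, then 0.30 and -0.20 on the 2 arrays of sort 2, which disagree. The deletion arrays gave -0.45 and -0.47 for day 3 and -0.02 and -0.06 for day 5. The mean of -0.25 in the deletion had a 95% interval from -0.63 to 0.13, with a limma adjusted p of 0.569, and the mean of 0.12 in the sorts one of 0.899. With the day 5 pair left out, the day 3 ratio of -0.46 passed at an adjusted p of 0.0064, in a fit that passed 41.9% of all genes and takes the lone pair to vary like the sorts.

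Rad21, the mitotic counterpart of Rec8, showed no shift that matched it. On the brightest probe, A_51_P384091, its ratios were 0.05 and 0.42 in sort 1 and -0.41 and -0.10 in sort 2. The day 3 arrays gave -0.12 and -0.36, and the day 5 arrays -0.07 and 0.07. The means of -0.01 in the sorts and -0.12 in the deletion had limma adjusted p values of 0.996 and 0.776. The 95% intervals, from -0.44 to 0.42 and from -0.55 to 0.31, leave out a 2-fold change in either direction. The second Rad21 probe gave means of -0.01 and -0.10.

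Stag1 and Stag2 are alternative partners of Rad21. The brightest of 4 Stag1 probes, A_52_P267446, gave 0.24 and 0.19 in sort 1 and -0.24 and -0.02 in sort 2. In the deletion it was below 0 on every array, at -0.17 and -0.04 on day 3 and -0.07 and -0.08 on day 5. Its limma adjusted p values were 0.977 in the sorts and 0.769 in the deletion. Stag2, on the X chromosome, was too dim for the test in the sorts at its brightest probe over all channels, A_52_P298172. That probe gave -0.13 and 0.19 on day 3 and -0.28 and -0.04 on day 5, with a mean of -0.06, a 95% interval from -0.36 to 0.23 and an adjusted p of 0.823. Another Stag2 probe, A_51_P126540, was well above background in all 16 channels. Its ratios were -0.02 and 0.26 in sort 1 and -0.12 and -0.04 in sort 2. In the deletion it had day 3 ratios of 0.50 and 0.19 and day 5 ratios of -0.17 and -0.20. The remaining Stag2 probe, A_52_P473146, had a mean of 0.08 on day 3 and of 0.10 on day 5, so the probes disagreed in sign on day 5. Averaging the 3 probes gave 0.034 in the deletion, against -0.06 at the brightest.

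The meiotic partners of Rec8 were near or below the background. Smc1b was well above background in 0 of 16 channels. Stag3 was well above background in none of the 8 sort channels and in 5 of the 8 deletion channels, 3 of them control channels. Neither gene was tested, and no fold is given for them.

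**Figure D3:**
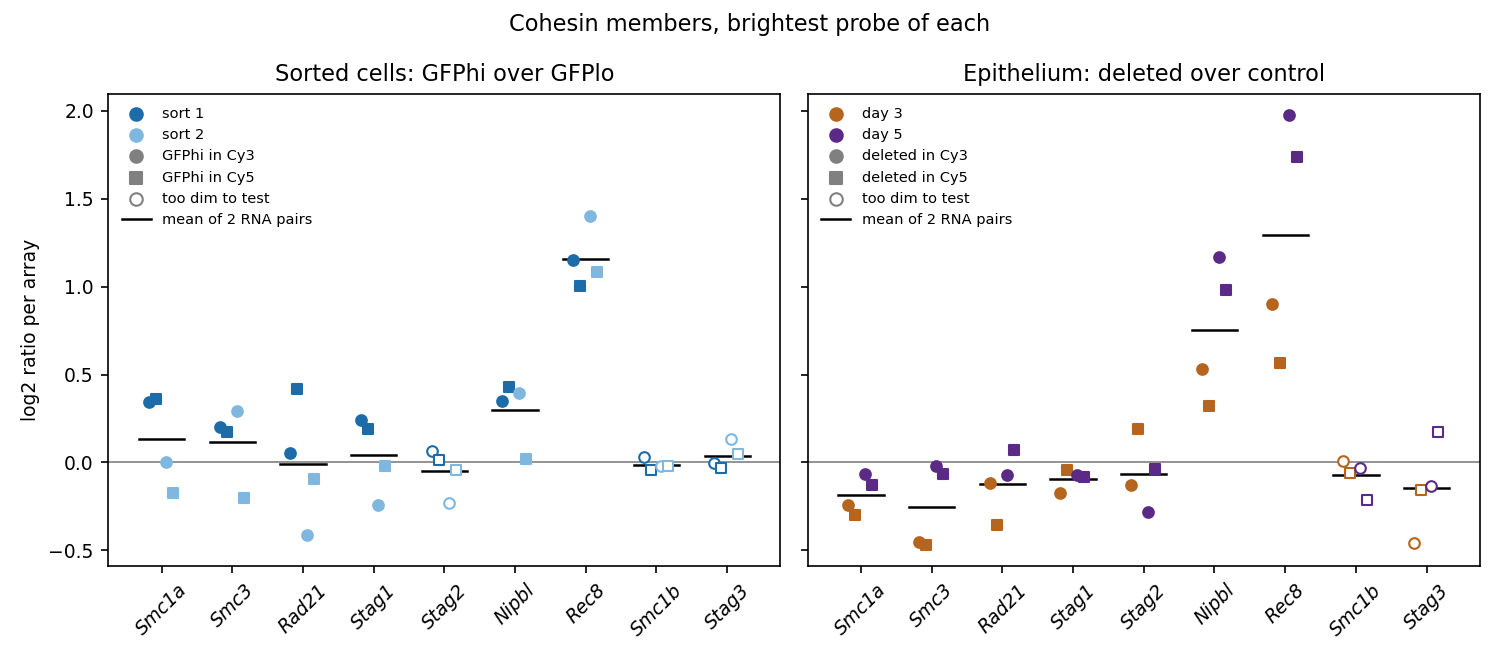
Log2 ratio of each array for the brightest probe of the 9 cohesin genes, with GFPhi over GFPlo on the left and deleted over control on the right. Circles and squares are the dye-swapped arrays, open symbols are genes too dim for the test at that probe and black lines are means of 2 RNA pairs. Rec8 lies between 1.002 and 1.40 in the sorts and between 0.56 and 1.98 in the deletion, and the Nipbl probe is the next highest in both panels.

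Nipbl, the loader, gave readings that depend on the probe. Its brightest probe over all channels, A_52_P394835, is on the minus strand of chromosome 15, from 8303265 to 8303324 in mm8. It gave 0.35 and 0.43 in sort 1, 0.39 and 0.02 in sort 2, 0.53 and 0.32 on day 3 and 1.17 and 0.98 on day 5. It was thus above 0 on all 8 arrays, highest on day 5. The deletion mean of 0.75, or 1.68-fold, had a 95% interval from 0.24 to 1.26 and an SE of 0.19, with 0.444 as its limma adjusted p. The sort mean of 0.30 had an adjusted p of 0.724, and one of 0.0474 in the sorts fitted alone. It was 0.64 with the scanner's processed signals and 0.82 with the deposited ratios, and the deletion mean was 0.38 with the Nipbl probes averaged, with adjusted p values from 0.417 to 0.454 for these 3 values. When all 8 arrays entered singly, with RNA pairs as random blocks, the deletion passed at an adjusted p of 0.0477, among 2.18% of all genes. It also passed with 1 day left out, at an adjusted p of 9.7e-05 without day 3 and 0.0108 without day 5, in fits that passed 14.8% and 41.9% of all genes.

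The second Nipbl probe, A_52_P293385, lies 65339 bases away, at 8237926 to 8237985, further along the transcript on the minus strand. It gave 0.02 and 0.08 on day 3 and -0.10 and 0.06 on day 5, with a deletion mean of 0.01 and a sort mean of 0.04. All 8 deletion channels were well above background there. In the deletion RNAs this second probe had the higher signal, although A_52_P394835 was brighter over all channels. Its mean log2 signal was 9.38 in deleted and 9.33 in control RNA on day 3, and 9.58 and 9.60 on day 5. The probe A_52_P394835 was at 8.32 and 7.89 on day 3, and at 9.05 and 7.98 on day 5. The remaining probe, toward the start of the gene, was well above background in no channel. In the deletion the ratios of A_52_P394835 were therefore not shared by the second probe. In the sorts the second probe was well above background in only 3 GFPhi and 2 GFPlo channels and was not tested. Its sort mean therefore cannot tell whether the ratio was shared there. Which Nipbl transcripts each probe detects is not given. The fibroblast and muscle markers were high in the same day 5 deleted RNA as the brightest Nipbl probe, and their part was not tested.

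Members were also counted together, at the brightest probe of each. Of the 6 tested in the sorts, 2, Rec8 and Nipbl, were above 0 on all 4 arrays, against 17.4% of all genes tested. In the deletion the same 2 of 7 tested members were above 0 on all 4 arrays, against 13.5%, and Smc1a, Smc3 and Stag1, 3 of 7, were below 0 on all 4, against 12.6%. Smc1a, Smc3, Rad21 and Stag1, 4 of 7, were below 0 on both day 3 arrays, against 39.5% of all genes. The median of the members tested was 0.12 in the sorts and -0.09 in the deletion, against 0.01 and 0.00 over all genes tested. Since the members were chosen with these ratios known, nothing is read from these counts.

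The factors that load, acetylate, release or cleave cohesin were mostly lower in the deleted epithelium on day 3. Of 19 tested, 17 were below 0 on both day 3 arrays, against 39.5% of all genes tested, with a median of -0.55 on day 3 and -0.06 on day 5, and none passed the limma test. Esco2, which acetylates SMC3, was at -0.95 on day 3 and -0.25 on day 5 (adjusted p = 0.494 in limma). Chtf18, part of a clamp loader used to set up cohesion during replication, was at -0.94 and -0.40 (adjusted p = 0.478). Cdca5, or sororin, which keeps cohesin on chromatids, was at -0.99 and -0.19, and Espl1, the separase that cuts the kleisin, at -0.996 and -0.11 (adjusted p = 0.528 for both). In the sorts 8 of 14 tested were above 0 by their mean, against 52.0% of all genes tested. The median was 0.01, with 0.19 in sort 1 and -0.07 in sort 2, so the sorts disagreed in sign. Wapl, the release factor, was at -0.19 and -0.15 and Dscc1, another part of the clamp loader, at 0.50 and 0.02. Chtf8, of the same loader, was at 0.24 and 0.20, and Espl1 at 0.17 and 0.24, with adjusted p values of at least 0.849 for these 4 genes.

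The condensin and SMC5/6 complexes, which share the ring architecture, also had a lower median on day 3 than on day 5. All 15 tested genes were below 0 on both day 3 arrays (39.5% of all genes), with a median of -0.29, against -0.01 on day 5. The condensin subunits Ncapd2, Ncaph and Ncapd3 were at -1.07, -0.85 and -0.77 on day 3 and at -0.18, -0.15 and -0.19 on day 5. Their limma adjusted p values were between 0.522 and 0.525, and that of Nsmce2, a SUMO ligase at -0.29 and -0.12, was 0.573. In the sorts the median over 12 genes was 0.01, with 0.17 in sort 1 and -0.09 in sort 2. There Smc2, a condensin ATPase, was at 0.34 and 0.25, while Nsmce2, Nsmce3 and Nsmce4a of the SMC5/6 complex had means of -0.14, -0.14 and -0.12.

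Among the pathway lists, cell cycle genes gave the widest difference in median between the days. All 32 were below 0 on both day 3 arrays, again against 39.5% of all genes, with a median of -1.12 and a range from -1.71 to -0.53. On day 5 the median was 0.04 and 19 of the 32 were above 0, against 7982 of all 15841 genes tested. Mki67, the Ki-67 proliferation antigen, was at -1.21 on day 3 and 0.08 on day 5. Tk1, Gins1, Rrm2 and Pcna, which act in nucleotide supply and replication, were at -1.03, -1.19, -1.20 and -0.80 on day 3 and at -0.32, -0.28, -0.31 and -0.29 on day 5, with limma adjusted p values from 0.498 to 0.516. In the sorts 14 of 30 were above 0 by their mean, against 52.0% of all genes tested. Their median was 0.14 in sort 1 and -0.10 in sort 2, so the sorts disagreed in sign. Ccne1, a cyclin of S phase entry, was at -0.47 and -0.80 and Rrm2 at -0.21 and -0.78. Ccnb2 was at -0.12 and -0.39 and Cdt1, which licenses replication, at 0.33 and 0.02. The day 3 values of Smc1a, Smc3 and Rad21, between -0.24 and -0.46, were smaller in size than those of every cell cycle gene, and Rec8 at 0.73 was on the other side of 0.

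**Figure D4:**
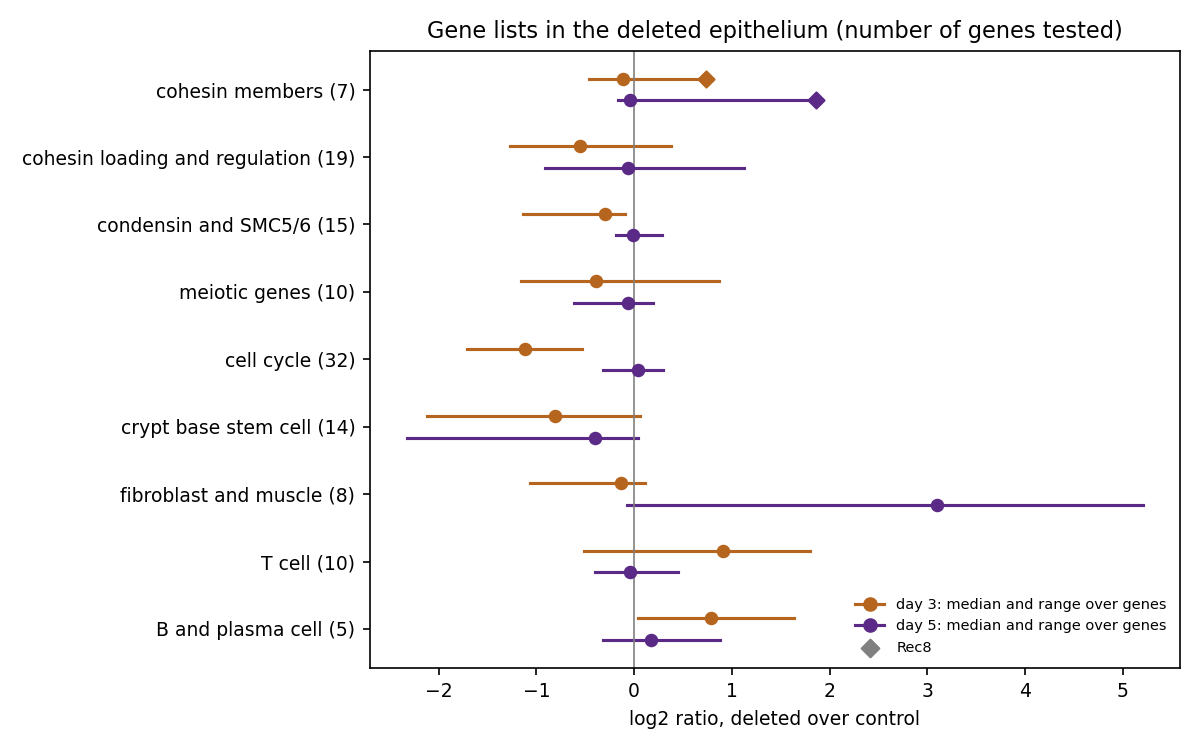
Log2 ratio of deleted over control for lists of genes, with a point at the median and a line from the lowest to the highest gene, day 3 above day 5, and the number of genes tested in parentheses. Diamonds mark Rec8, the highest cohesin member on both days. The cell cycle list has a median of -1.12 on day 3 and 0.04 on day 5, and the fibroblast and muscle markers reach a median of 3.09 on day 5.

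Other genes of meiosis were mostly too dim to test. Of 30 listed, 29 were on the array, but only 3 passed the signal filter in the sorts and 10 in the deletion. In the deletion 8 of these 10 had a mean below 0, against 49.5% of all genes tested, and the median was -0.26. Tex12, a protein of the synaptonemal complex that joins paired chromosomes, was at -0.74 on day 3 and -0.62 on day 5 (adjusted p = 0.352 in limma). Mnd1, which assists strand exchange, was at -0.71 and -0.45 (adjusted p = 0.385). Msh5 and Mlh3, mismatch repair relatives that act in crossing over, had means of -0.25 and -0.26, with Mlh3 at -0.52 and 0.01 on the 2 days. In the sorts Psmc3ip, the partner of Mnd1, was at 0.35 and 0.02, Syce2 of the synaptonemal complex at 0.21 and -0.18, and Spo11, which cuts DNA in meiosis, at -0.16 and 0.11, with adjusted p values of at least 0.956.

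Genes whose ratios were closest to those of Rec8 over the 4 RNA pairs were sought by Euclidean distance among 9344 genes. Jaml was closest at a distance of 1.01, with ratios of 0.59 and 0.80 in the sorts, 0.20 on day 3 and 1.29 on day 5. Tifa at 1.08, Casp4 at 1.28, Sp5 at 1.32 and Sord at 1.36 followed, besides a clone name that ranks between Casp4 and Sp5. Sp5 was at 1.49 and 1.40 in the sorts and at 0.65 and 0.62 on the 2 days, so its day 5 value was not above its day 3 value. Casp4 was at 0.57 and 0.16 in the sorts, 1.14 on day 3 and 2.05 on day 5. Each of these genes was above 0 in all 4 RNA pairs, which a small distance from Rec8 favours.

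The 3 genes on either side of Rec8 in the RefSeq gene order, chosen after their values were seen, are Psme2, Rnf31, Irf9, Ipo4, Tm9sf1 and Tssk4. All were tested in both comparisons, and their ratios lay between -0.49 and 0.35 in every RNA pair. In every pair all 6 were below Rec8, which was chosen for its high ratios. Of all genes tested, 0.18% and 0.12% were above Rec8 in sorts 1 and 2, and 4.97% and 0.59% on days 3 and 5. Nothing is read from this count.

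Because ASCL2 is a helix-loop-helix factor, the RefSeq promoter windows were searched for CANNTG, the letters such factors can bind. They were also searched on both strands for CTTTGA, the letters of Tcf factors. Each window covers 250 bases before to 50 after a transcript start in GRCm38.p6. The 2 matches in the Rec8 window are shown with 30 bases each, from the plus strand of chromosome 14 in GRCm38.p6, and capitals mark the match.
Rec8 helix-loop-helix letters, chr14:55618109-55618138: ttggagagtgtgCACCTGatcccgctggag
Rec8 Tcf letters, chr14:55618045-55618074: ggctccaggagtCTTTGAgtttcttctggc
They begin 45 and 109 bases before the start. The pattern CANNTG reads the same on both strands, although the letters of a match need not. Of 32851 windows of this length, 72.3% hold this pattern and 16.0% hold the Tcf letters. CAGCTG, a narrower form, is in 16.3% of windows and not in that of Rec8. Of the 6 members with a window in the table, Smc1a, Smc3 and Stag3 also hold the helix-loop-helix letters, and none but Rec8 holds the Tcf letters. A match is a description of the letters and not a binding site.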

How the data were processed

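The scanner files hold spot intensity values on a linear scale, per the file headers, with a mean foreground and a median local background per channel. The image software was Feature Extraction, version 9.5.3.1, its protocol GE2-v5_95_Feb07 and the build of the probe positions mm8, per the file headers. The same files hold processed signal intensity values and a log10 ratio of Cy5 over Cy3, per the file headers. The deposited series matrix holds log2 ratios already turned to deleted over control or GFPhi over GFPlo. They correlated with the scanner ratios at an r of at least 0.972, and their column medians lay between -0.0248 and 0.0306. Whether they were centred is unknown.

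Backgrounds were corrected with normexp (offset 50), followed by loess within each array with control and outlier spots at weight 0. Most steps follow an earlier analysis of these files, with 1 change made after the values, those of Rec8 included, had been seen. On the sort 2 arrays 28 and 34 spots, and on 1 day 5 array 3 spots, had local backgrounds over 10 times the median of their channel, up to 65270. They raised the SD that normexp assigns to the background to between 314 and 739 on the sort 2 arrays, which pulled the ratios of dim probes to 0. These backgrounds were set to the median and the spots left out, which lowered that SD to between 4.09 and 21.5.

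Spots were averaged per probe (41174 probes). A gene was read at its brightest probe, the one with the highest mean signal over all channels. RefSeq accessions, used for names alone, named 23374 probes. Current symbols named 6733 and older symbols 2919, and 8148 kept the name printed beside the probe. Dye-swapped arrays were averaged, and limma 3.58.1 in R 4.3.3 fitted all 4 RNA pairs with 1 coefficient per comparison and eBayes moderation. Channel levels are loess values after Aquantile scaling between arrays. The 2 days count as replicates of the deletion, so their difference adds to the spread. A gene was tested if 1 or both RNAs of the comparison were well above background on all their arrays. Adjusted p values are two-sided Benjamini-Hochberg values over all genes tested.

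The members and gene lists were chosen with earlier results of these data known. From each list the up to 4 tested genes with the smallest p in each comparison are named, and for Rec8 the 5 nearest genes that carry a current gene name. Alternatives are given in the closing section.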

Additional observations from a re-analysis of the deposited data

Results flagged for a closer look

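For 1 Smc1a probe, A_52_P12481, which is not its brightest, 1 of the 4 sort arrays lay apart from the others. The array of sort 1 with GFPhi RNA in Cy5 gave 0.24, while the other arrays gave 0.01, -0.03 and 0.00. The probe was well above background on 2 of the 4 arrays' GFPlo channels and on all 4 GFPhi channels. Chance alone sets apart about 1 group in 20 by this measure, and 20 probes were screened.

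The Stag2 probe A_51_P126540 moved in opposite directions on the 2 deletion days. It was above 0 on both day 3 arrays, with a mean of 0.34, and below 0 on both day 5 arrays, with a mean of -0.19. The difference was not tested, since each day has 1 RNA pair, and the brightest Stag2 probe was at 0.03 and -0.16.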

How the results depend on the processing

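Of 182 member ratios recomputed under an alternative, 168 kept their direction and, where tested, their side of the threshold. The Rec8 sort value of 0.94 given below also stayed above 0 but is not among the 168. Where only the fit, the filter or the pairs of the other comparison changed, the ratio itself stayed as it was. Part of this count was therefore fixed in advance. Of 140 recomputed list medians, 10 had the other sign, among them the cell cycle median of the deletion without day 3 (0.039 against -0.57). Rec8 had a ratio of 1.05 in the sorts and 1.28 in the deletion with all local backgrounds as deposited, an alternative added after the data were seen. Over all alternatives it stayed above 0 in both comparisons, and its lowest sort value, 0.94, came from the mean of its probes. That value and the deletion value without day 5, 0.73, are below the 2-fold mark. Leaving out 1 RNA pair gave Rec8 ratios from 1.08 to 1.24 in the sorts and from 0.73 to 1.86 in the deletion.

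The number of genes past the test depends on the fit, at 0 in each comparison when the averages of dye-swapped arrays from all 4 RNA pairs were fitted together. It was 1582 with the sorts alone, 203 in the sorts and 345 in the deletion with 8 single arrays and RNA pairs as random blocks. Leaving out 1 RNA pair gave 0 to 2221 genes in the sorts and 0 to 6644 in the deletion, where leaving out day 3 gave 2339 and leaving out day 5 gave 6644. A lone pair is then taken to vary like the other comparison, and the difference between the days no longer adds to the spread.

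Nipbl passed in the sorts at an adjusted p of 0.0229 when day 3 or day 5 was left out. In the deletion it passed with a ratio of 1.07 without day 3 and of 0.43 without day 5. Signs of uncalled values turned in the sorts for Smc1a, Stag1 and Rad21 when 1 sort was left out, with ranges from -0.087 to 0.352, -0.13 to 0.21 and -0.25 to 0.24. They turned for Stag1 with the deposited ratios (-0.19), and for Stag2 in the deletion when 1 day was left out (-0.16 to 0.031) or with the mean of its probes (0.034). The left-out settings turn because the sorts or days differ in sign; for the deposited ratios and the mean of probes the cause was not tested.

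With RNA pairs left out, list medians in the deletion ran from -1.12 to 0.04 for the cell cycle, -0.55 to -0.06 for cohesin regulators, -0.29 to -0.01 for condensin and SMC5/6, -0.39 to -0.06 for meiotic genes and -0.11 to -0.042 for the members. In the sorts they ran from -0.10 to 0.14, -0.07 to 0.19, -0.09 to 0.17, 0.016 to 0.21 and -0.02 to 0.29 in the same order. Without the filter on dim probes the meiotic median in the deletion was -0.016, over a larger set of genes. No paired analysis was possible because both RNAs of a pair share their arrays, so that the pairing is already in each ratio. Each RNA pair has its own slide, so the fit with RNA pairs as random blocks is also one with slides as blocks. The number of arrays limits the precision, and dim probes such as those of Smc1b and Stag3 limit what can be read.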
